A study of Mus musculus with 6 samples.

Results

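Aminoacyl-tRNA synthetases are the enzymes that load each transfer RNA with its amino acid, and their genes are described here in the messenger RNA of mouse brain endothelial cells after a convulsant or a saline injection. The family was taken as every protein-coding gene whose symbol is a one-letter amino acid code followed by ars, with or without a final 1 or 2, together with Eprs, Farsa and Farsb. This gave 37 of the 53465 genes in the deposited count matrix, of which 20 encode cytosolic enzymes and 17, with symbols ending in 2, encode mitochondrial enzymes. All 37 passed the filter on low counts, which kept 13768 genes for testing.

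The study injected adult mice with PTZ (pentylenetetrazol, a convulsant that blocks GABA-A receptors) or with PBS (phosphate buffered saline), and 3 libraries of each treatment were analysed: PTZ-1, PTZ-2 and PTZ-4, and PBS-1, PBS-2 and PBS-4. Every mouse of both groups was male, 8 to 12 weeks old and of the genotype tie2-Cre; ai9; rpl22HA/HA, in which Cre is driven by the Tie2 promoter, ai9 is a fluorescent reporter of Cre and Rpl22 is a ribosomal protein that gains an HA tag where Cre has acted. The control animals therefore carry the same alleles as the treated ones. Tie2-driven Cre is active in endothelium and also in part of the blood lineage, which limits how far the RNA can be taken as endothelial. The labels name the cortex as the tissue and call the sample total RNA, while the series title speaks of a translatome. The dose of PTZ, the time after injection and the way the cells or their ribosomes were isolated were not given in the sources used here. No label states that the libraries came from separate animals, so p-values measure the spread between these libraries, which may in part be technical.

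A synthetase first activates its amino acid with ATP and then passes it to the matching tRNA, which carries it to the ribosome. The cytosol and the mitochondrion run separate translation systems, and most amino acids have a nuclear gene for each. Gars and Kars are the exceptions that serve both compartments from the same gene, and mitochondrial glutaminyl-tRNA is made indirectly, by Ears2 and an amidotransferase, so no Gars2, Kars2 or Qars2 exists among the members. Eprs joins the enzymes for glutamate and proline in 1 protein, and Farsa and Farsb are the 2 kinds of subunit of the cytosolic phenylalanine enzyme. Several cytosolic synthetases are held in a multi-synthetase complex on the scaffold proteins AIMP1, AIMP2 and AIMP3, the last encoded by Eef1e1. Many of the cytosolic genes are known targets of ATF4, the transcription factor of the amino acid response and the integrated stress response.

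Counts assigned to genes numbered 11691668 to 15406967 per PTZ library and 11107481 to 14932860 per PBS library. Endothelial identity was checked on 12 marker genes, each with reads in every library: their summed level was 10951 to 18818 CPM in PTZ libraries and 11500 to 16043 CPM in PBS libraries, where CPM stands for a gene's counts scaled to library size and corrected for composition by TMM. Markers of other cells were present too. The 10 tested markers of pericytes and smooth muscle, of 11 listed, all had positive log2 fold changes with a median of 1.23, and the 11 summed to 382 to 1154 CPM in PTZ libraries and 213 to 589 CPM in PBS libraries. All 7 fibroblast markers were likewise positive with a median of 1.35, and summed to 87.9 to 288 CPM in PTZ libraries and 92.9 to 150.1 CPM in PBS libraries. All 9 markers of microglia and other myeloid cells had negative log2 fold changes with a median of -0.44, and summed to 1688 to 2531 CPM in PTZ libraries and 2541.5 to 3107.5 CPM in PBS libraries. Red cell, platelet and neutrophil markers summed to 6148 to 12393 CPM in PTZ libraries and 7309 to 11521 CPM in PBS libraries. Sums of neuronal, astrocytic and oligodendrocytic markers reached at most 179 CPM in a PTZ library and 213 CPM in a PBS library. No listed marker was at 0 in every library, and Tagln, Gad2, Slc17a7 and Tubb3 were under 1 CPM in all. The part of these cells in the synthetase values was not tested, and in bulk RNA fewer cells of a type cannot be told apart from less RNA per cell.

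No synthetase gene passed the test for a difference between PTZ and PBS. Levels were compared with edgeR's quasi-likelihood test over the 13768 genes, with p-values adjusted by Benjamini-Hochberg and called below 0.05. The smallest adjusted p among the members was 0.690, for Hars, and the smallest of any gene was 0.283, so 0% of all genes passed. DESeq2 and limma-voom also called 0 members, though over all genes DESeq2 called 53 higher and 23 lower in PTZ and limma-voom 1 higher. At an unadjusted p under 0.05, 0 of 37 members were higher in PTZ, where 3.83% of all genes were, and 1 of 37 was lower in PTZ, where 3.38% of all genes were. This fit leaves out the replicate numbers. With these as a block in edgeR, 2 of 37 were higher at that level, Eprs and Lars2, and 1 was lower. None of them passed after adjustment. The share of all genes in that fit was not worked out, so these counts cannot be set against the 3.83% and 3.38% of the first fit. The 3 PTZ libraries lay above the 3 PBS libraries for 2 members, Eprs and Sars, or 5.41% of the family against 7.3% of all genes. They lay below them for 3 members, Hars, Wars2 and Pars2, or 8.11% of the family against 7.04% of all genes. These shares are close to those of all genes.

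The intervals of the differences were narrow for most cytosolic genes. For 19 of the 20 cytosolic members the approximate 95% interval of the log2 fold change lay within a 2-fold change either way, Vars being the exception. Only 3 of the 17 mitochondrial members had an interval that narrow, beside 4764 of all 13768 genes tested. The mitochondrial members summed to a mean of 249 CPM in PTZ libraries, against 1406 CPM for the cytosolic ones. The part of expression level in these widths was not tested. SE values were 0.187 to 0.602 for cytosolic members and 0.216 to 0.925 for mitochondrial members, on the log2 scale.

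Summed over the 20 cytosolic genes, the level was 1493 CPM in PTZ-1, 1341 CPM in PTZ-2 and 1383 CPM in PTZ-4, against 1439.9 CPM in PBS-1, 1279 CPM in PBS-2 and 1317 CPM in PBS-4. The mean was 1406 ± 78.7 CPM in PTZ libraries and 1346 ± 83.9 CPM in PBS libraries (SD, n = 3 each), and the groups overlap. The log2 fold change was above 0 for 13 of the 20 genes, and its median was 0.13, beside 0.03 over all genes tested, of which 52.7% were positive. The range ran from -0.52 for Hars to 0.90 for Vars. Without PTZ-1 the median was -0.02 and 9 genes were positive, so this small shift has no settled sign. PTZ lay above the PBS library of its number for 11, 13 and 13 of the 20 genes, for numbers 1, 2 and 4. With the replicate numbers as a block in edgeR the median was 0.133.

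**Figure D1:**
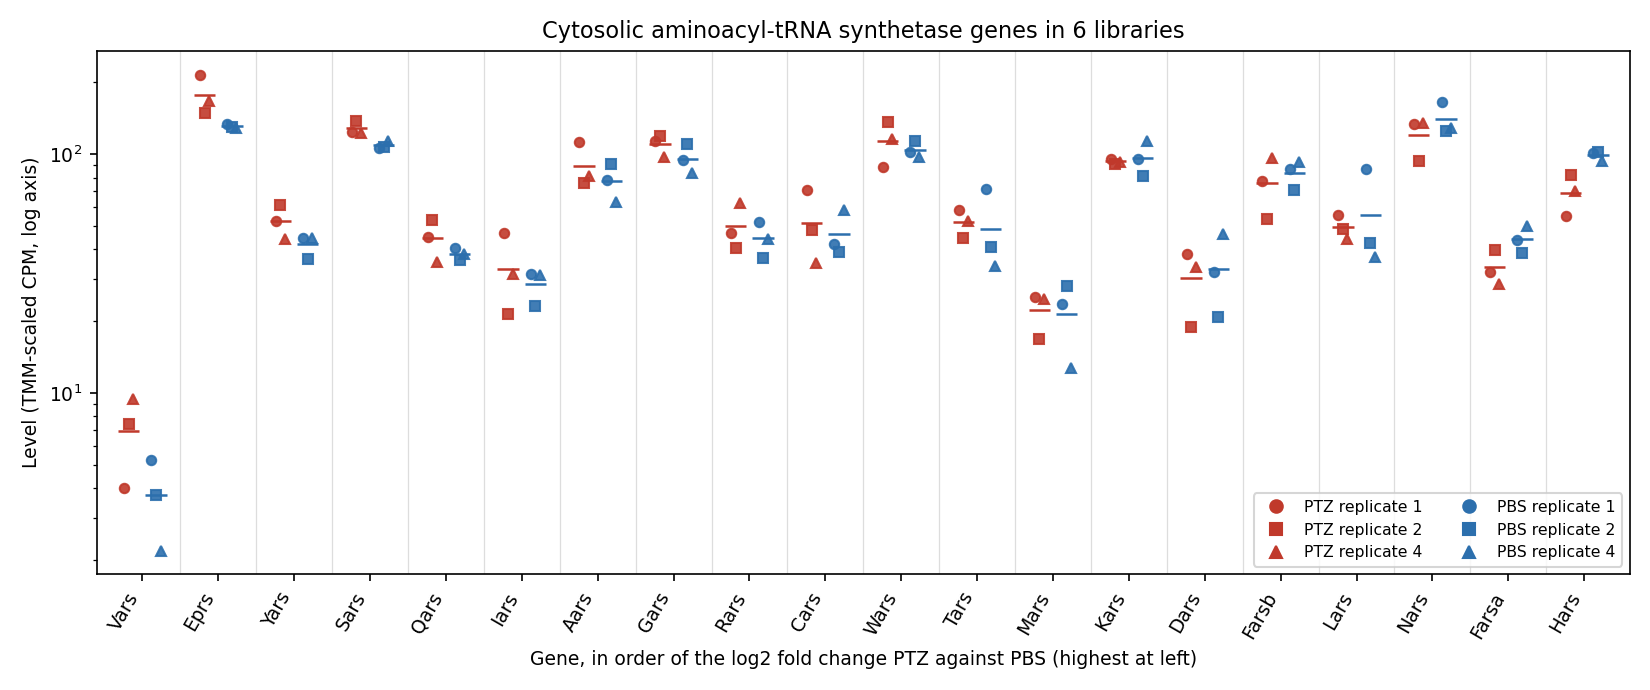
Level of each of the 20 cytosolic synthetase genes in each library, as TMM-scaled CPM on a log axis, with genes in order of their log2 fold change. Red marks are PTZ libraries and blue marks PBS libraries, the shape gives the replicate number and the short line is the mean of 3 libraries; the groups separate for Eprs and Sars, where PTZ is higher, and for Hars, where PTZ is lower.

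Eprs, the fused glutamate and proline enzyme and the largest member of the multi-synthetase complex, had the smallest p among genes higher in PTZ. The gene lies at chr1:185363044-185428360 on the plus strand (GRCm38). Its level was 216, 149 and 168 CPM in PTZ-1, PTZ-2 and PTZ-4, against 134, 129.9 and 129 CPM in PBS-1, PBS-2 and PBS-4. Every PTZ library lay above every PBS library, with PTZ-1 the highest and the PBS libraries close together. The log2 fold change was 0.44 (SE 0.21), with an adjusted p of 0.700 by edgeR's quasi-likelihood test, and it was 0.27 without PTZ-1.

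Vars, the valine enzyme, had the largest log2 fold change of the cytosolic genes and the lowest level for its length. It lies at chr17:35000987-35016322 on the plus strand. Its level was 4.03, 7.45 and 9.45 CPM in PTZ-1, PTZ-2 and PTZ-4, against 5.25, 3.75 and 2.19 CPM in PBS-1, PBS-2 and PBS-4. PTZ-1 fell between the PBS libraries, so the groups overlap. With a log2 fold change of 0.90 and an SE of 0.60, the adjusted p was 0.773, and the interval ran from -0.44 to 2.24.

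Hars, the histidine enzyme, was the only member at an unadjusted p under 0.05 in the fit without replicate numbers. It was read at 55.0, 82.2 and 70.5 CPM in PTZ-1, PTZ-2 and PTZ-4, against 101, 102 and 93.5 CPM in PBS-1, PBS-2 and PBS-4. All PTZ libraries were below all PBS libraries, and PTZ-1 was the lowest. The log2 fold change was -0.52 (SE 0.22, interval -1.0 to -0.03), and the adjusted p from edgeR was 0.690. Its unadjusted p was 0.0384, and it was above 0.05 when any library other than PTZ-2 was left out, with 0.125 without PTZ-1 as the highest. The first exon of Hars overlaps that of Hars2, the mitochondrial histidine enzyme, on the opposite strand. Whether the counting used strand was not given in the sources used here, and reads in the overlap cannot be assigned with certainty. Hars2 was at 23.3, 25.7 and 23.8 CPM in PTZ-1, PTZ-2 and PTZ-4, against 26.2, 18.6 and 18.4 CPM in PBS-1, PBS-2 and PBS-4. Its log2 fold change was 0.20 (SE 0.28), with overlapping groups.

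Farsa, the alpha subunit of the phenylalanine enzyme, was the next of the genes with lower values in PTZ. It lies at chr8:84856989-84869257 on the plus strand. Its level was 32.1, 39.9 and 28.8 CPM in PTZ-1, PTZ-2 and PTZ-4, against 43.8, 38.7 and 50.1 CPM in PBS-1, PBS-2 and PBS-4. PTZ-2 lay above PBS-2, and the log2 fold change was -0.40 (SE 0.24, adjusted p 0.755 by edgeR). Farsb, the beta subunit, was at 77.5, 53.5 and 96.3 CPM in PTZ-1, PTZ-2 and PTZ-4, against 87.0, 71.2 and 93.1 CPM in PBS-1, PBS-2 and PBS-4. Its log2 fold change was -0.14 (SE 0.25). Per kilobase of annotated exon, the 2 subunits of the same enzyme stood at 8.57 CPM for Farsa and 30.4 CPM for Farsb, as means over the 6 libraries. Farsb has exon overlap with Sgpp2 on the opposite strand.

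Sars, Tars, Wars and Yars have described roles in vessels beside charging. In zebrafish the serine enzyme restrains vessel growth by lowering Vegfa transcription, and in human endothelial cells the secreted threonine enzyme and a fragment of the tyrosine enzyme promote angiogenesis while a fragment of the tryptophan enzyme opposes it. Sars, at chr3:108424865-108445209 on the minus strand, was at 124, 138 and 123 CPM in PTZ-1, PTZ-2 and PTZ-4, against 106, 108 and 114 CPM in PBS-1, PBS-2 and PBS-4. The groups do not overlap, but the log2 fold change was small at 0.23 (SE 0.19, adjusted p 0.808 by edgeR), and 0.14 without PTZ-2.

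Yars was at 52.6, 61.2 and 44.3 CPM in PTZ-1, PTZ-2 and PTZ-4, against 44.8, 36.3 and 44.8 CPM in PBS-1, PBS-2 and PBS-4, a log2 fold change of 0.33 (SE 0.23). PTZ-4 was just under the 2 higher PBS libraries. Yars has exon overlap with the protein-coding gene C77080 on the opposite strand. For Wars the values were 88.2, 137 and 116 CPM in PTZ-1, PTZ-2 and PTZ-4, against 103, 114 and 97.1 CPM in PBS-1, PBS-2 and PBS-4, a log2 fold change of 0.12 (SE 0.22). For Tars they were 58.4, 44.6 and 52.6 CPM in PTZ-1, PTZ-2 and PTZ-4, against 71.5, 40.8 and 33.9 CPM in PBS-1, PBS-2 and PBS-4, a log2 fold change of 0.09 (SE 0.30). The highest Wars value was a PTZ library and the highest Tars value a PBS library, with the groups overlapping for both.

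The genes that serve both compartments had differences within their errors. Gars, the glycine enzyme, was at 114, 119 and 97.9 CPM in PTZ-1, PTZ-2 and PTZ-4, against 94.6, 110.4 and 83.3 CPM in PBS-1, PBS-2 and PBS-4. Its log2 fold change was 0.20 (SE 0.21), with the PTZ library above the PBS library of the same number in 3 of 3 pairs. Kars, the lysine enzyme, was at 96.0, 91.1 and 93.0 CPM in PTZ-1, PTZ-2 and PTZ-4, against 95.2, 81.2 and 114 CPM in PBS-1, PBS-2 and PBS-4, a log2 fold change of -0.05 (SE 0.21). The PTZ libraries lay inside the range of the PBS libraries.

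The other cytosolic members had log2 fold changes from -0.22 to 0.22. Above 0 were Qars (glutamine) and Iars (isoleucine), at 0.22 and 0.21, Aars (alanine) at 0.21, Rars (arginine) at 0.17, Cars (cysteine) at 0.15 and Mars (methionine) at 0.06. Below 0 were Dars (aspartate) at -0.13, Lars (leucine) at -0.16 and Nars (asparagine) at -0.22. Each of these differences was smaller than its SE. Mars has exon overlap with Ddit3, a stress-induced gene on the opposite strand, and Aars has exon overlap with Exosc6 on the same strand.

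By catalytic fold, the 10 cytosolic class I genes had 9 positive log2 fold changes with a median of 0.19, and the 10 class II genes had 4 with a median of -0.09. For replicate numbers 1, 2 and 4, PTZ lay above PBS for 6, 8 and 7 class I genes. The same held for 5, 5 and 6 class II genes. Without PTZ-1, Iars, Cars and Mars of class I and Tars of class II turned negative. All the class I genes but Qars and Rars are also listed ATF4 targets, so the split by that listing, below, largely shares these genes. Eprs, which joins the glutamate and proline enzymes, was counted in class I only, while the mitochondrial proline gene Pars2 was counted in class II. Class I enzymes bind ATP in a Rossmann fold and class II enzymes in an antiparallel sheet. The 8 members of the multi-synthetase complex had 5 positive values with a median of 0.12, and the 12 cytosolic members outside it had 8 with a median of 0.13. Of the mitochondrial genes, 4 of 9 in class I were positive with a median of -0.14, and 4 of 8 in class II with a median of -0.02.

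**Figure D2:**
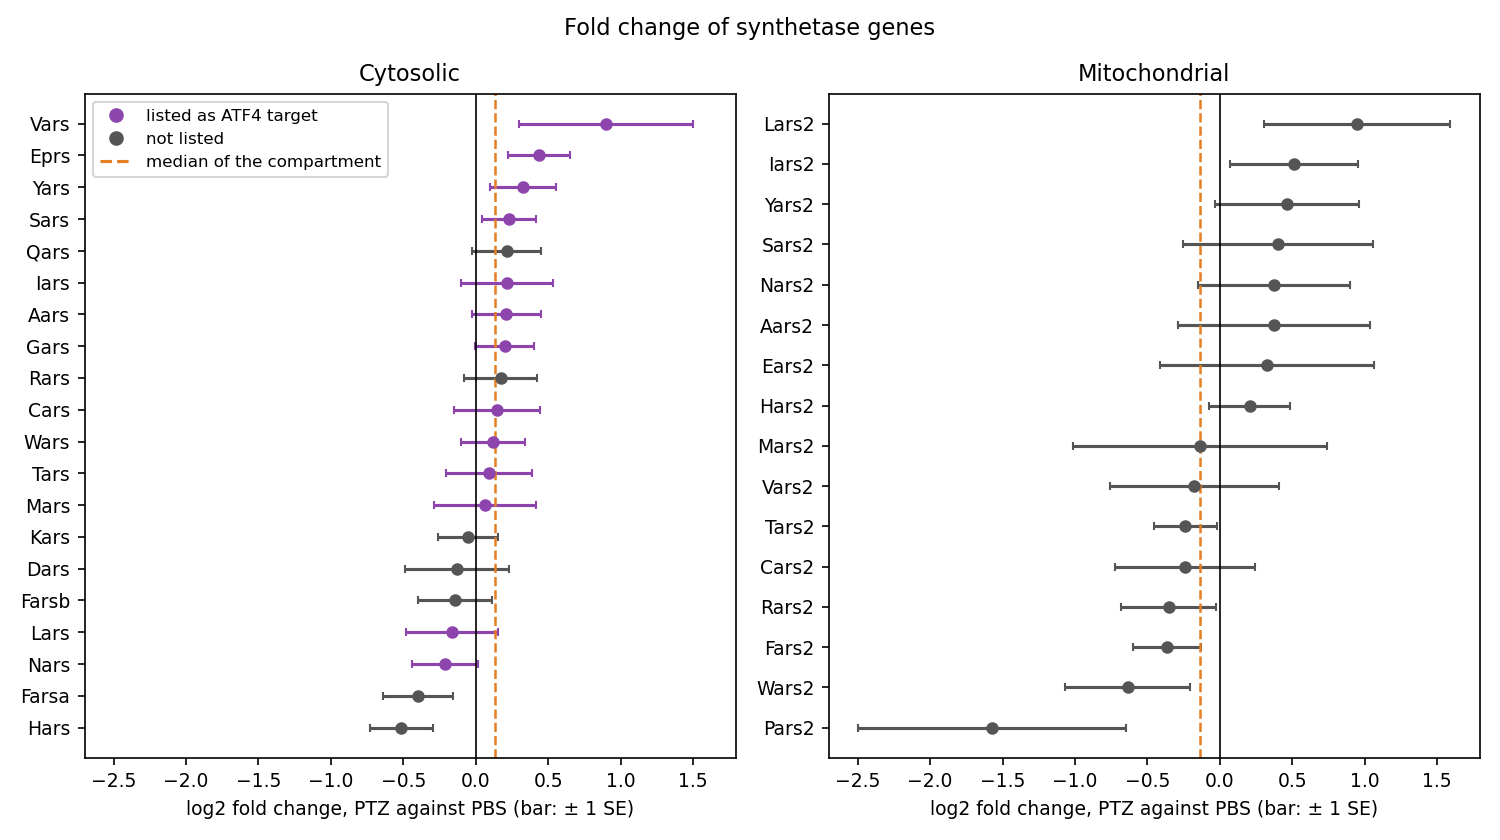
Log2 fold change of PTZ against PBS for the 20 cytosolic synthetase genes at left and 16 of the 17 mitochondrial ones at right, with bars of 1 SE either way. Purple points are cytosolic genes listed as ATF4 targets, grey points the others and the dashed line the median of the compartment, 0.13 for the 20 cytosolic and -0.14 for all 17 mitochondrial genes; the bars are mostly longer in the mitochondrial panel.

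Of the 20 cytosolic genes, 13 are commonly listed as targets of ATF4. Among them 11 had log2 fold changes above 0, and their median was 0.20, and among the 7 genes not listed 2 were positive, with a median of -0.13. None of either kind passed the test. Without PTZ-1 only 7 of the 13 listed genes were positive, against 9 to 12 when another library was left out. Lars and Nars were the listed genes with negative values.

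ATF4 binds DNA with C/EBP proteins at elements that hold the letters TGATGNAA, so the promoters of the family were searched for them on both strands. RefSeq promoters of GRCm38.p6, from 250 bases before to 50 after each gene's start, were found for 27 of the 37 members. The motif was found for 5 of the 13 cytosolic genes and 0 of the 14 mitochondrial genes with a promoter in the table, beside 1219 of all 27025 genes there (4.51%). Counted by promoter, it was in 1304 of all 32851 (3.97%). All 5 belonged to the 8 listed ATF4 targets with a promoter, and 0 to the 5 cytosolic genes not listed. How far the listing itself rests on such elements was not tested, so this split is only a description. The stretches from 150 bases before to 30 after the start are shown for these 5 genes, 5′ to 3′ on the gene's own strand with the motif in capitals, because they are the members that share this element. They lie at chr8:111033692-111033871 (plus strand), chr6:55037851-55038030 (plus), chr13:49681980-49682159 (plus), chr15:11399629-11399808 (minus) and chr4:129189753-129189932 (plus).
Aars: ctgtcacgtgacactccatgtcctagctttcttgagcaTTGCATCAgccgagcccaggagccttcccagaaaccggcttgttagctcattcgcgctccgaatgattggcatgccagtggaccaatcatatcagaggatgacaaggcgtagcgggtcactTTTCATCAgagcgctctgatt
Gars: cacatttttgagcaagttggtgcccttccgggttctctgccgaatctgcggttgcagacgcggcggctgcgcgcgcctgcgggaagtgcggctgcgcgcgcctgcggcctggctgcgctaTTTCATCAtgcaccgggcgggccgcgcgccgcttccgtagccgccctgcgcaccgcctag
Iars: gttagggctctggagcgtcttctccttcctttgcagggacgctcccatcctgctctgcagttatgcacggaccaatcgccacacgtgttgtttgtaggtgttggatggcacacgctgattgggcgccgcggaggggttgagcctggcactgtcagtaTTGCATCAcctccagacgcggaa
Tars: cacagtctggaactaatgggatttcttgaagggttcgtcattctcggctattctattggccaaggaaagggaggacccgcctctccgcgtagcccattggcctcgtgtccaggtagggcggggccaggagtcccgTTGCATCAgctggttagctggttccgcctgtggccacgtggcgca
Yars: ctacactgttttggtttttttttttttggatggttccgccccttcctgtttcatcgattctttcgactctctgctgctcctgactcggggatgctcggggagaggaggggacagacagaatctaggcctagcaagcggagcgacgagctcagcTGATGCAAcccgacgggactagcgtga

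Aars holds the motif in 2 places, and in Yars it reads TGATGCAA along the gene's strand. In the other 4 genes it lies on the reverse strand and appears as its reverse complement, TTGCATCA or TTTCATCA. The log2 fold changes of these 5 genes were 0.21 for Aars, 0.20 for Gars, 0.21 for Iars, 0.09 for Tars and 0.33 for Yars, and none passed the test. A match is a description of letters and not a measured binding site. Eprs, Sars and Mars, the other listed targets with a promoter in the table, had no match in this window. The listed targets Vars, Cars, Wars, Lars and Nars had no promoter there and were not searched. Lars and Nars, at -0.16 and -0.22, are the listed targets with negative log2 fold changes.

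ATF4 itself and its other targets were set beside the synthetases. Of 24 tested genes of 27 listed, 17 had positive log2 fold changes with a median of 0.23, and 4 were higher in PTZ at an unadjusted p under 0.05, or 16.7%, beside 3.83% of all genes. None passed after adjustment. Slc38a2, an amino acid transporter, was at 153, 85.7 and 120.4 CPM in PTZ-1, PTZ-2 and PTZ-4, against 38.0, 60.5 and 55.5 CPM in PBS-1, PBS-2 and PBS-4. All PTZ libraries were above all PBS libraries, with a log2 fold change of 1.22 (SE 0.28, adjusted p 0.446 by edgeR). It passed with DESeq2 (adjusted p 0.0237) and in edgeR without the filter on low counts (adjusted p 0.0126), and in the other 11 alternatives its adjusted p was 0.262 to 0.918.

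Atf4 was at 187, 178 and 208 CPM in PTZ-1, PTZ-2 and PTZ-4, against 120.1, 126 and 133 CPM in PBS-1, PBS-2 and PBS-4, a log2 fold change of 0.60 (SE 0.19, adjusted p 0.636 by edgeR). Its groups do not overlap either, as for 4 of the 24 tested genes, or 16.7%, beside 7.3% of all genes. Gpt2 and Atf3 were among the 4. Gpt2, an alanine transaminase, and Atf3, a stress-induced transcription factor, had log2 fold changes of 1.49 (SE 0.54) and 1.71 (SE 0.76), with adjusted p of 0.648 and 0.690 by edgeR. Atf3 was at 57.3, 47.8 and 70.6 CPM in PTZ-1, PTZ-2 and PTZ-4, against 6.93, 44.4 and 2.95 CPM in PBS-1, PBS-2 and PBS-4, so that PBS-2 stood near the PTZ libraries. In edgeR its log2 fold change without PBS-2 was 3.52, with an adjusted p of 0.0415, and without the filter on low counts the adjusted p was 0.000364. In the other 11 alternatives Atf3 did not pass, with an adjusted p of 0.344 to 1, and DESeq2 gave 0.737. Asns, the asparagine synthetase that is often used as a readout of ATF4, was at 28.3, 13.7 and 13.5 CPM in PTZ-1, PTZ-2 and PTZ-4, against 28.9, 22.9 and 22.9 CPM in PBS-1, PBS-2 and PBS-4. Its log2 fold change was -0.43 (SE 0.35), on the other side of 0 from Atf4, with PTZ-1 inside the range of the PBS libraries. Without PTZ-1 it was -0.87, with an adjusted p of 0.802 by edgeR.

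The scaffold of the multi-synthetase complex had lower values in PTZ for each of its 3 genes, with a median log2 fold change of -0.54 and no gene past the test. Aimp2 was at 23.6, 25.1 and 32.9 CPM in PTZ-1, PTZ-2 and PTZ-4, against 43.3, 34.3 and 41.8 CPM in PBS-1, PBS-2 and PBS-4, a log2 fold change of -0.55 (SE 0.25, adjusted p 0.694 by edgeR). Aimp1 was at 90.2, 81.9 and 57.8 CPM in PTZ-1, PTZ-2 and PTZ-4, against 95.4, 111 and 93.0 CPM in PBS-1, PBS-2 and PBS-4, a log2 fold change of -0.38 (SE 0.23). For both genes every PTZ library was below every PBS library, as for 7.04% of all genes. Eef1e1 was at 16.2, 12.0 and 6.70 CPM in PTZ-1, PTZ-2 and PTZ-4, against 21.4, 7.60 and 21.8 CPM in PBS-1, PBS-2 and PBS-4, a log2 fold change of -0.54 (SE 0.49). Here PBS-2 was below 2 of the PTZ libraries. The complex's 8 synthetases had a median of 0.12 in the same fit, and the difference between the scaffold and the synthetases was not tested.

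The 17 mitochondrial genes summed to 229.8 CPM in PTZ-1, 279 CPM in PTZ-2 and 239 CPM in PTZ-4, against 267 CPM in PBS-1, 256 CPM in PBS-2 and 228 CPM in PBS-4. The mean was 249 ± 26.1 CPM in PTZ libraries and 250.4 ± 19.8 CPM in PBS libraries (SD, n = 3 each). Among them 8 had log2 fold changes above 0, and the median was -0.14, with a range of -1.57 for Pars2 to 0.95 for Lars2. The median moved between -0.37 and 0.10 as single libraries were left out, so it has no settled sign. It was -0.37 without PTZ-1, 0.09 without PTZ-4, 0.10 without PBS-1 and 0.08 without PBS-2.

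**Figure D3:**
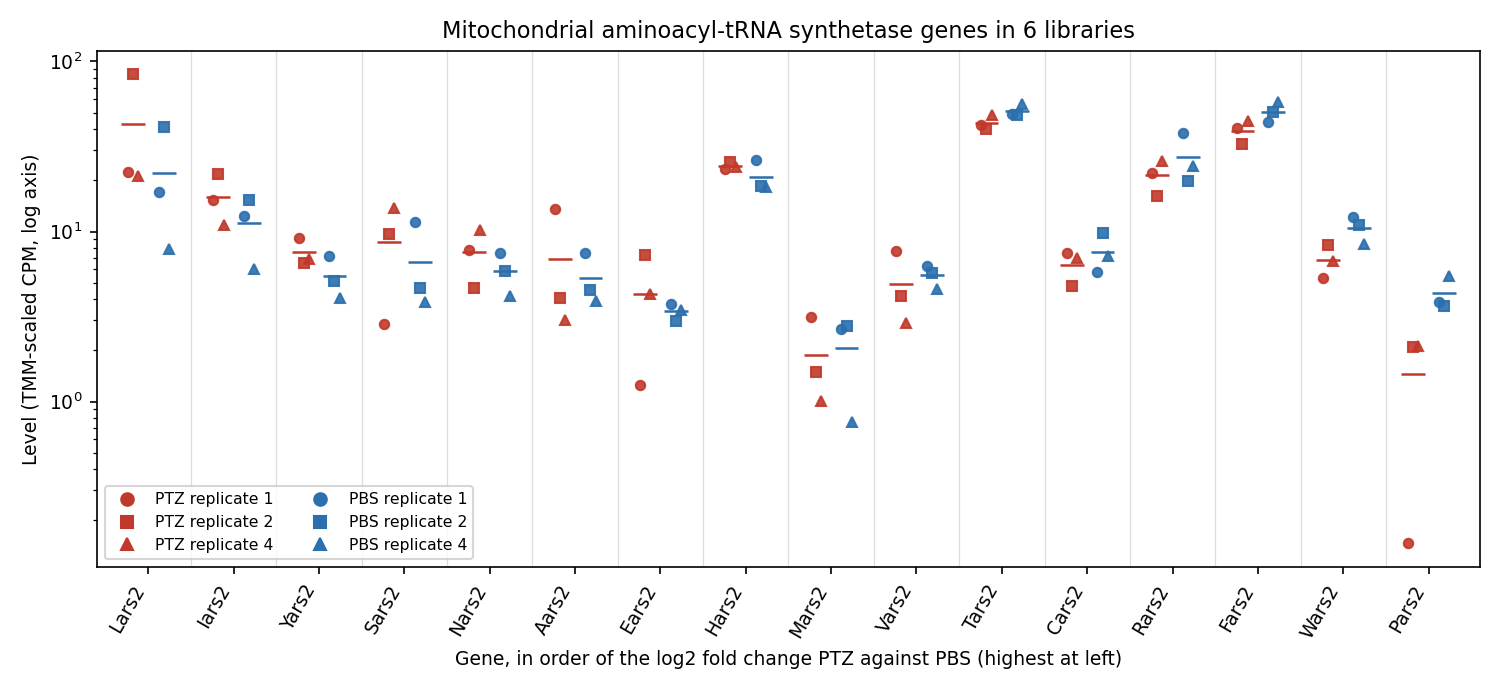
Level of 16 of the 17 mitochondrial synthetase genes in each library, as TMM-scaled CPM on a log axis, with genes in order of their log2 fold change. Red marks are PTZ libraries and blue marks PBS libraries, the shape gives the replicate number and the short line is the mean of 3 libraries; Lars2 stands highest in PTZ-2 and PBS-2, and Pars2 lowest in PTZ-1 at 0.146 CPM.

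Lars2, the mitochondrial leucine enzyme at chr9:123366927-123462666 on the plus strand, had the largest positive value. Its level was 22.5, 84.2 and 21.3 CPM in PTZ-1, PTZ-2 and PTZ-4, against 17.2, 41.5 and 7.86 CPM in PBS-1, PBS-2 and PBS-4. The replicate number 2 was the highest library of each group, and each PTZ library lay above the PBS library of its number. The log2 fold change was 0.95 (SE 0.64) with an adjusted p of 0.773 by edgeR, and it was -0.05 without PTZ-2 and 1.74 without PBS-2. When the replicate numbers entered the edgeR fit as a block, its unadjusted p was 0.00653, its adjusted p 0.344 and the SE 0.27. Reads of ribosomal RNA can map to Lars2, which holds related sequence. Of the genes that overlap ribosomal RNA, Gm26917 was at 14.1, 6.16 and 0.688 CPM in PTZ-1, PTZ-2 and PTZ-4, against 3.12, 11.6 and 1.66 CPM in PBS-1, PBS-2 and PBS-4, while Gm42418 and AY036118 were at 0 in all 6 libraries. Replicate 4 was the lowest library of each group for both Gm26917 and Lars2, and PBS-2 was the highest PBS library for both. Among the PTZ libraries Gm26917 was highest in PTZ-1 and Lars2 in PTZ-2. The part of ribosomal RNA in the Lars2 values was not tested.

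Pars2, the mitochondrial proline enzyme at chr4:106651069-106655282 on the plus strand, had the largest negative value. It was read at 0.146, 2.08 and 2.13 CPM in PTZ-1, PTZ-2 and PTZ-4, against 3.87, 3.65 and 5.44 CPM in PBS-1, PBS-2 and PBS-4. These levels rest on 2, 21 and 34 reads in the PTZ libraries and on 62, 37 and 72 reads in the PBS libraries. All PTZ libraries were below all PBS libraries. The log2 fold change was -1.57 (SE 0.92), with an adjusted p of 0.742 by edgeR and an interval from -3.62 to 0.48, and it was -1.03 without PTZ-1.

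Wars2, the mitochondrial tryptophan enzyme at chr3:99141068-99239186 on the plus strand, also had groups that do not overlap. It was at 5.34, 8.34 and 6.70 CPM in PTZ-1, PTZ-2 and PTZ-4, against 12.2, 11 and 8.46 CPM in PBS-1, PBS-2 and PBS-4. All PTZ libraries were below all PBS libraries, although PTZ-2 and PBS-4 nearly meet, and the log2 fold change was -0.64 (SE 0.43, adjusted p 0.773 by edgeR).

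Iars2, the isoleucine enzyme, was at 15.3, 21.9 and 10.9 CPM in PTZ-1, PTZ-2 and PTZ-4, against 12.3, 15.4 and 6.05 CPM in PBS-1, PBS-2 and PBS-4, a log2 fold change of 0.51 (SE 0.44). As for Lars2, replicate 2 was the highest and replicate 4 the lowest library in each group. Rars2, the arginine enzyme and the mitochondrial member with the highest level per kilobase, was at 22.2, 16.1 and 26.1 CPM in PTZ-1, PTZ-2 and PTZ-4, against 38.1, 19.9 and 24.3 CPM in PBS-1, PBS-2 and PBS-4. Its log2 fold change was -0.35 (SE 0.33), and PBS-1 stood above the other 5 libraries.

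The other mitochondrial genes described had overlapping groups. Positive log2 fold changes were found for Yars2 at 0.47, Sars2 at 0.40, Nars2 and Aars2 at 0.37 each and Ears2 at 0.32, with SE values of 0.50 to 0.74. Negative ones were found for Mars2 at -0.14, Vars2 at -0.18, Tars2 and Cars2 at -0.24 each and Fars2 at -0.36. Fars2 and Tars2, the phenylalanine and threonine enzymes, had the smaller errors among these, at 0.23 and 0.22, and in each the PTZ library lay below the PBS library in 3 of 3 pairs. The share of all genes that kept a direction in 3 of 3 pairs was not worked out, here or for Gars and Lars2. Cars2, Ears2, Fars2 and Iars2 each have exon overlap with a protein-coding neighbour on the opposite strand.

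Per kilobase of annotated exon, the order of levels was led by Hars at 34.4, Gars at 33.1, Wars at 31.6, Farsb at 30.4 and Nars at 29.97 CPM per kilobase, as means over the 6 libraries. Sars at 23.1 and Kars at 21.3 CPM per kilobase came next. Vars was the lowest cytosolic gene at 0.954 CPM per kilobase, below Iars at 5.87. Among mitochondrial genes Rars2 was highest at 8.82, followed by Fars2 at 7.82, Tars2 at 6.83 and Hars2 at 5.30, and Mars2 was lowest at 0.175 CPM per kilobase. Mars2 was at 3.15, 1.49 and 1.0 CPM in PTZ-1, PTZ-2 and PTZ-4, against 2.69, 2.76 and 0.756 CPM in PBS-1, PBS-2 and PBS-4. The length is that of all annotated exons merged, so a gene with long alternative exons appears lower than its usual transcript would.

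**Figure D4:**
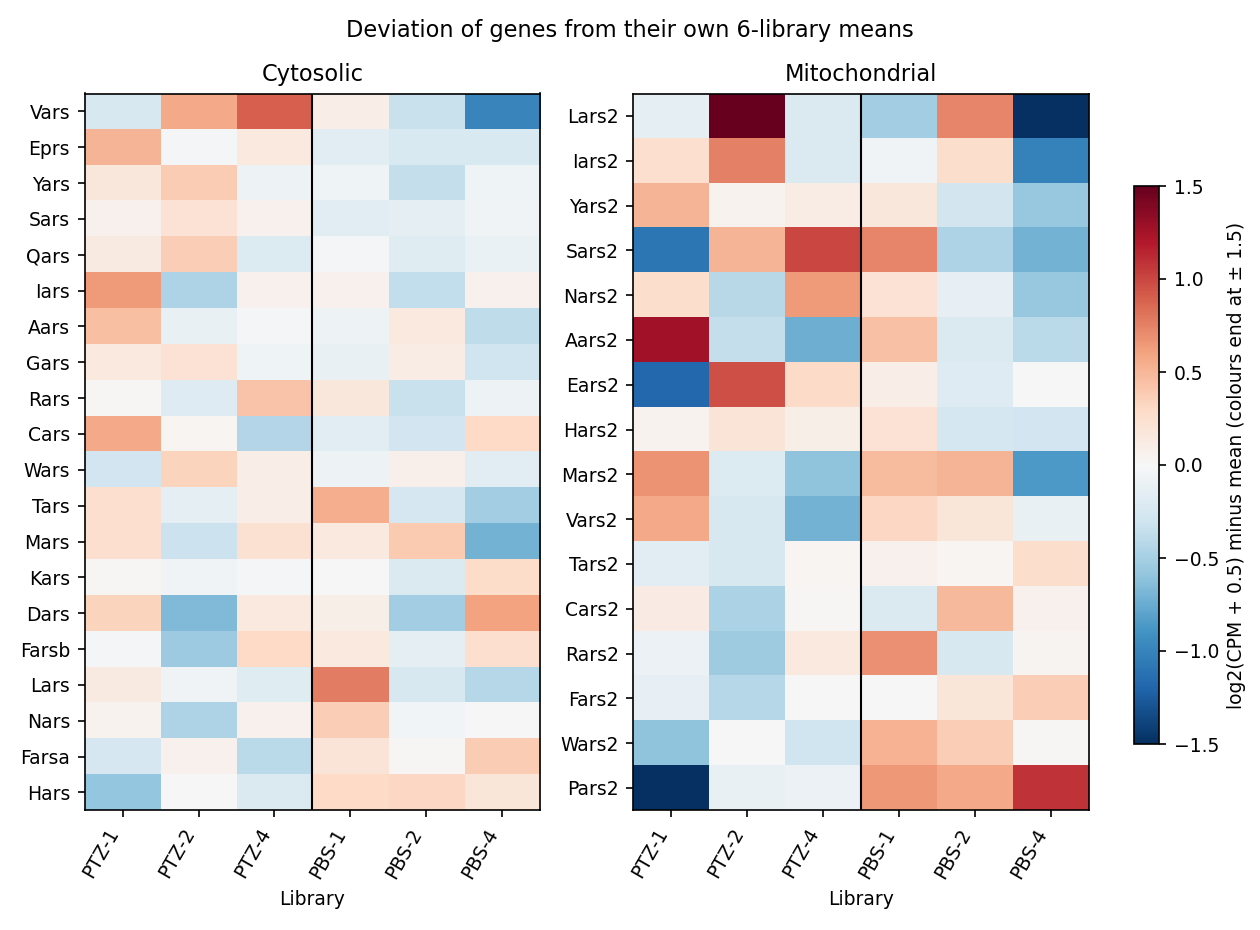
Deviation of the 20 cytosolic and 16 of the 17 mitochondrial synthetase genes, each from its own mean over the 6 libraries, as log2(CPM + 0.5), in colours that end at 1.5 either way, with PTZ libraries left of the line and PBS libraries right of it. Red is above the gene's mean and blue below it; Lars2 is red in PTZ-2 and PBS-2, Pars2 is blue in PTZ-1, and no library is of 1 colour throughout.

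No library set the whole family. Of the 20 cytosolic genes, the lowest library was PBS-4 for 7, PTZ-2 for 4 and PTZ-4 and PBS-2 for 3 each, and the highest was PTZ-2 for 5 and PTZ-1 for 4. Of the 17 mitochondrial genes, the lowest was PBS-4 for 6 and PTZ-1 for 5. Over all 13768 genes tested, PTZ-1 and PBS-4 were also the most frequent lowest libraries, for 2777 and 2571 genes. The highest there was most often PTZ-1, for 3129 genes. The median deviation of the cytosolic genes from their own means was 0.14 in PTZ-1, -0.04 in PTZ-2 and 0.06 in PTZ-4, against 0.08 in PBS-1, -0.20 in PBS-2 and -0.07 in PBS-4, on the scale of log2(CPM + 0.5). PTZ-1 was also the library with the largest share of reads in no annotated feature, 9.34% against 2.99% to 5.19% in the other 5. It had 10 of the 11 pericyte and smooth muscle markers at their highest.

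Of 15 listed genes that act beside the 37 members in charging, 14 were found and 12 tested, and none differed at an unadjusted p under 0.05. Their log2 fold changes were positive for 5 and negative for 7, with a median of -0.26, beside 52.7% positive and a median of 0.03 over all genes. Prorsd1, a relative of the proline enzyme's editing domain, was at 21.8, 31.5 and 23.0 CPM in PTZ-1, PTZ-2 and PTZ-4, against 43.1, 34.8 and 32.8 CPM in PBS-1, PBS-2 and PBS-4, a log2 fold change of -0.54 (SE 0.26, adjusted p 0.700 by edgeR). Mtfmt, which formylates the methionyl-tRNA that starts mitochondrial translation, had a log2 fold change of -0.65 (SE 0.44). For both the PTZ libraries were all below the PBS libraries, which makes 2 of the 12 tested, or 16.7%, beside 7.04% of all genes. Dtd1, which removes D-amino acids from tRNA, was at -0.42 (SE 0.22), and Ptrh2, a peptidyl-tRNA hydrolase, at -0.50 (SE 0.26), with overlapping groups. Xpot, the exporter of tRNA from the nucleus, had a log2 fold change of 0.01. The list also holds Tarsl2, a threonyl-tRNA synthetase-like gene whose symbol falls outside the pattern that set the family. Its log2 fold change was -0.13 (SE 0.54).

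Of 10 mitochondrial translation factors, 3 had positive log2 fold changes and the median was -0.20, and 2 were lower in PTZ at an unadjusted p under 0.05, or 20%, beside 3.38% of all genes. Neither passed after adjustment. Mtif3, an initiation factor, was at 13.4, 20.6 and 16.3 CPM in PTZ-1, PTZ-2 and PTZ-4, against 38.4, 29.1 and 40.4 CPM in PBS-1, PBS-2 and PBS-4, a log2 fold change of -1.11 (SE 0.28, adjusted p 0.516 by edgeR). Mtrf1, a release factor, was at 0.878, 5.96 and 4.94 CPM in PTZ-1, PTZ-2 and PTZ-4, against 13.1, 8.49 and 22.1 CPM in PBS-1, PBS-2 and PBS-4, a log2 fold change of -1.89 (SE 0.68, adjusted p 0.648 by edgeR). For both genes the PTZ libraries were all below the PBS libraries, which makes 2 of 10, or 20%, beside 7.04% of all genes. Mrrf, which recycles ribosomes, and Mrpl58, which rescues stalled ones, were both at -0.37, with SE values of 0.26 and 0.28.

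**Figure D5:**
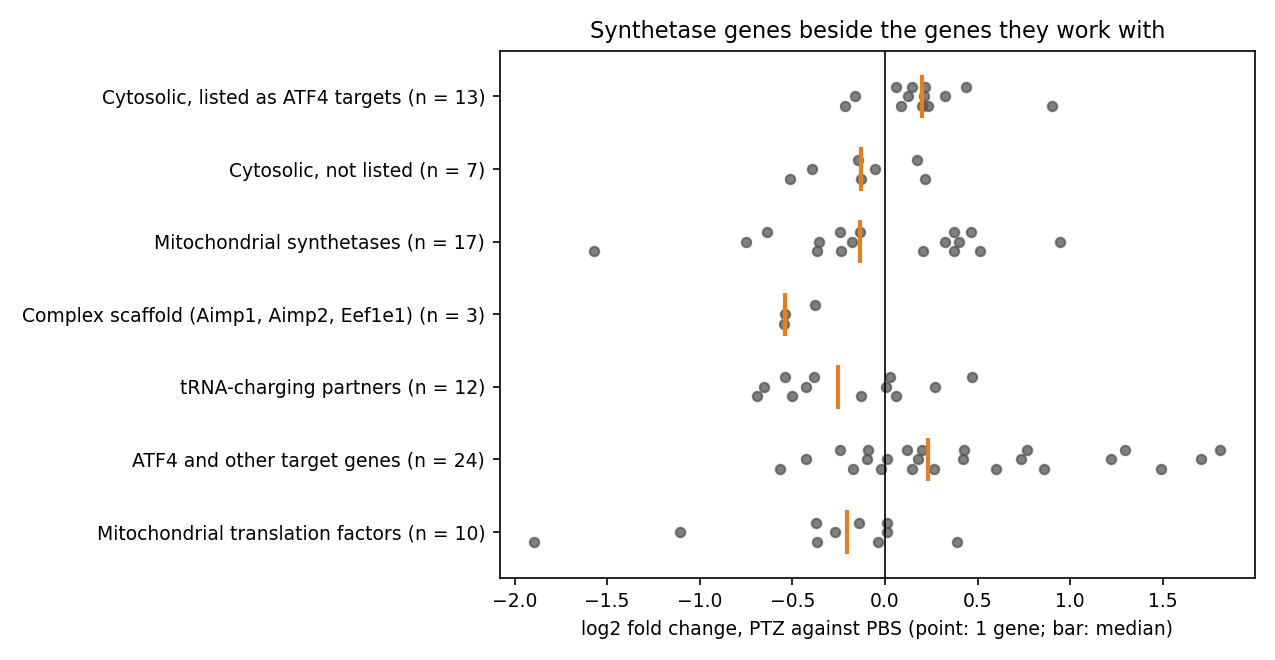
Log2 fold change of PTZ against PBS for the synthetases in 3 groups and for 4 lists of genes that act with them, with 1 point per tested gene and an orange bar at the median. The medians run from -0.54 for the 3 scaffold genes to 0.23 for the 24 tested ATF4 genes, and the points of each list except the scaffold fall on both sides of 0.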

How the data were processed

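RNA of 6 libraries was compared, 3 PTZ and 3 PBS. The deposited matrix holds raw counts as whole numbers for 53465 Ensembl genes, per the file headers. The authors also deposited a scaled signal, which is each count over a factor of its library. The signal served only as an alternative scaling. Rows that name no gene held 16.1% to 22.9% of reads and stayed out. GRCm38, HTSeq, TopHat2 2.1.1, CASAVA and edgeR stand in the submitters' processing notes with no roles. The annotation release and strand setting were not given in the sources used here.

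Symbols, coordinates and exon lengths came from GENCODE M21 (GRCm38), which covers 53360 IDs. Counts were filtered with filterByExpr (minimum count 10, total 15), given TMM factors of 0.864 to 1.14 and then tested with edgeR 4.0.16 in R 4.3.3 (glmQLFit and glmQLFTest, group as factor, 2-sided, Benjamini-Hochberg over 13768 genes, threshold 0.05). SE was derived from the fold change and its F statistic, and 95% intervals from the SE. Depth of 11107481 to 15406967 reads sets the counting error, and the biological coefficient of variation over all genes was 0.47. Libraries of 1 group differed beyond sampling noise in every pair (chi-square over its degrees of freedom 43.8 to 99.1).

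Replicate numbers 1, 2 and 4 come from the titles. Deviations from group means correlated at 0.167, 0.197 and 0.217 across genes between libraries of the same number. By a rule of over 0.1 in each pair the numbers count as pairs, though no test of the pairing was run. The labels state no pairing. Unless the block is named, p-values, SE values and intervals come from fits without the pairs, and the block was an alternative.

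Values per library are given for members at unadjusted p under 0.05 or with groups that do not overlap, for the 2 of each compartment with the smallest p in each direction, for the highest and lowest level per kilobase, and for Gars, Kars, Sars, Tars, Wars, Yars and Lars2, with up to 4 genes per accompanying list. One mitochondrial member, counted in all totals, is not reported here by name. Farsb and Hars2 were given in full after their values were seen. The members, lists and tests were chosen with earlier results of these data known. Alternatives were other scalings, no filter, DESeq2 1.42.0, limma-voom (limma 3.58.1), the replicate block and leaving out each library.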

Additional observations from a re-analysis of the deposited data

How the results depend on the processing

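Over 13 alternatives, 0 synthetase genes passed the adjusted threshold; 21 of 37 kept the sign of their log2 fold change in all of them and 16 turned in at least 1. Counts over all genes did depend on the method: without a filter 77 genes were higher and 44 lower in PTZ, with DESeq2 53 and 23, with limma-voom 1 was higher, and with single libraries left out 0 to 8 were higher, 8 without PBS-2. Members higher at an unadjusted p under 0.05 numbered 1 without a filter (Lars2), 2 with the replicate block (Eprs and Lars2) and 0 to 1 in the leave-outs. Members lower numbered 2 with limma-voom (Hars and Pars2) and 0 to 1 in the leave-outs. The share of all genes at that level was not worked out for the alternatives. These counts therefore cannot be read as more or fewer than among all genes. With the replicate block the median log2 fold change was 0.133 for cytosolic and -0.0847 for mitochondrial genes, and the block changed no adjusted call of a member. In the leave-outs the cytosolic median ran from -0.0211 to 0.198 and the mitochondrial one from -0.366 to 0.1.

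Under the authors' scaling Mars was at -0.00246, with limma-voom Ears2 was at -0.0835 and Gm26917 at -0.0431, and with the block Gm26917 was at -0.0185. Leaving out single libraries turned the sign of these log2 fold changes, with ranges of -0.111 to 0.403 for Iars, -0.157 to 0.354 for Cars, -0.148 to 0.473 for Tars, -0.236 to 0.262 for Mars, -0.0711 to 0.276 for Wars, -0.41 to 0.152 for Dars, -0.359 to 0.0138 for Farsb, -0.027 to 0.303 for Rars, -0.415 to 0.312 for Lars and -0.199 to 0.051 for Kars. Among mitochondrial genes the ranges were -0.587 to 0.726 for Aars2, -0.0527 to 1.74 for Lars2, -0.317 to 0.763 for Ears2, -0.0935 to 1.04 for Sars2, -0.731 to 0.165 for Mars2 and -0.656 to 0.0928 for Vars2, and for Gm26917 -0.683 to 1.49. The cause was not tested.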
